A study of Homo sapiens with 12 samples.

Results

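The libraries described here are those of HEK293 reporter cells that received scrambled siRNA, 6 of the 12 libraries of the series. Each library was assigned to this group by its label. All 6 came from 1 culture of HEK293 cells obtained from ATCC, a line grown from human embryonic kidney, which stably expressed the intron-DARP-EGFP reporter. Each library stands for a separate transfection with scrambled siRNA at 100 nM and a lipid reagent, with RNA taken 72 hours later from 1000000 cells. ERCC mix1, a set of synthetic RNA standards, was added to every lysate, and 200 ng of RNA entered each library. The RNA integrity number was 10 in 5 libraries and 9.9 in the other. Since every library carried both the reporter and the transfection, the values below describe transfected reporter cells and not untouched HEK293 cells, and the spread between libraries is that of transfections of 1 culture.

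HEK293 cells were transformed by sheared adenovirus DNA and keep the viral E1A and E1B genes. E1A binds the retinoblastoma protein RB1 and its relatives and so frees the E2F factors that drive replication genes, and it also binds the acetyltransferases EP300 and CREBBP. E1B binds p53. The cell of origin has been debated, with kidney epithelium, neuronal precursors and adrenal cells all named as candidates, and the line is the usual host for expressing receptors and channels from plasmids.

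The assay was QuantSeq forward, which primes on poly(A) and reads the 3′ end of a transcript, so that a transcript gives about 1 tag whatever its length. Levels are therefore given as CPM, counts scaled to a total of 1000000 endogenous counts, and are compared between genes on that scale without dividing by length. Because the tags lie at the poly(A) end, the ends of some genes named below are shown here, read from the GENCODE 29 transcripts (GRCh38), with the signal AATAAA in capitals where the last 50 bases held it. The first 5 belong to abundant or steady genes: RPS24, a ribosomal protein, EEF2, an elongation factor, STMN1, a tubulin-binding protein, MRPL3, a mitochondrial ribosomal protein, and VIM, the intermediate filament vimentin. The last 2 belong to the histone genes HIST1H4C and HIST1H1C, which varied most between transfections among genes at 10 CPM or more. Replication-dependent histone transcripts normally end in a stem-loop without a poly(A) tail. The coordinates are those of the whole gene, and each sequence is its last 30 bases, 5′ to 3′.
RPS24 (chr10:78033732-78056813, plus strand): ggggctAATAAAtgttatatactgtttaag
EEF2 (chr19:3976056-3985469, minus strand): attggaatAATAAAtttgataaggtggtga
STMN1 (chr1:25884181-25906991, minus strand): ggagaaAATAAAagtttaaaaatttgtagt
MRPL3 (chr3:131462212-131502983, minus strand): aaaggaaagacAATAAAatcataaattatc
VIM (chr10:17228259-17237593, plus strand): ttctgcttcAATAAAtctttggaaaaactc
HIST1H4C (chr6:26103876-26104310, plus strand): tgagaacttcaaaaaacaaaaacAAAAAAA
HIST1H1C (chr6:26055787-26056428, minus strand): cctaagaaggcggcgcccaagaagaaatag

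In HIST1H4C the capitals mark a run of 7 adenines at the annotated end, a run that 3.75% of all coding genes held in their last 30 bases. The annotated end of HIST1H1C held neither signal nor run. Its last bases read as a stop codon, so the annotation may hold no bases past the coding part. Whether its transcripts carry a signal further on was not examined. On the gene's own strand, AATAAA or its common variant ATTAAA lay in the last 50 bases of 79.5% of the 10554 coding genes at 1 CPM or more and of 66.9% of the 6849 below 1 CPM. Over all 17403 coding genes with an annotated end the share was 74.5%. The genes below 1 CPM were not alike: the share was 60.0% of the 3569 with no count and 74.4% of the 3280 with a count. In the highest class, at 1000 CPM or more, 73 of 99 genes held a signal (73.7%). A match describes the letters at one annotated end only, and genes can end elsewhere.

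The libraries held 7337033 to 20269171 endogenous counts, with library 4 the shallowest and library 2 the deepest, by the numbers their labels give. The ERCC standards took 0.574% to 1.07% of each library's counts, and the endogenous to ERCC ratio was highest in library 4 at 7.44 on the log2 scale against 6.53 to 6.89 in the other 5. The reporter's GFP row stood at 89.4 to 124 CPM, with a mean of 100.2 ± 12.2 CPM (SD, n = 6). Across genes at 1 CPM or more, pairs of libraries correlated with Pearson's r of 0.983 to 0.994 on log2(CPM + 1), a description over genes that share each library's depth. The lowest value was that of libraries 2 and 6. The first principal component held 39.4% of the variance between libraries and ran from 22.3 in library 2 to -18.2 in library 6. Libraries 2 and 6 were thus its 2 ends, with library 3 at 9.54 on it, and libraries 2 and 3 correlated at 0.992. The second component held 21.2% of the variance and set library 4, at 21.6, apart from the others at -8.64 to 2.56. The main values on spread are given with and without library 2.

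Most of the transcriptome's mass came from few genes. Of 57704 endogenous genes in the table, 13587 reached a mean of 1 CPM, 8889 reached 10 CPM, 1724 reached 100 CPM and 117 reached 1000 CPM. Those 117 genes held 34.9 ± 1.08% of the counts (SD, n = 6), and the 100 most abundant genes of each library held 31.6% to 34.4%. At the other end, 31034 genes had no count in any library, and 13083 genes with a count but less than 1 CPM held 0.221% of the counts together. Between libraries the number of genes with a count ran from 18931 to 21867, and at the depth of the shallowest library it ran from 18931 to 19539. The threshold of 1 CPM in the mean was met in every single library by 12755 of the 13587 genes.

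**Figure D1:**
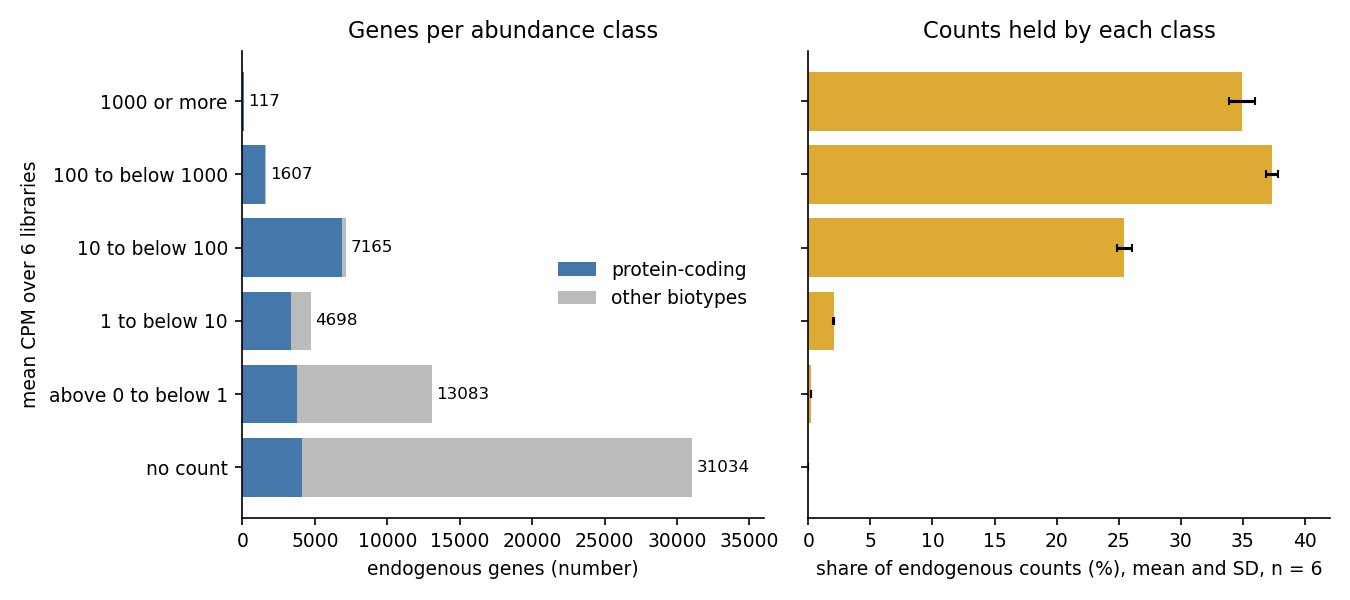
Number of endogenous genes (left, horizontal axis, protein-coding in blue and other biotypes in grey) and share of endogenous counts in percent (right, bars are means with SD over the 6 libraries) for classes of mean CPM on the vertical axis. The 117 genes at 1000 CPM or more held 34.9% of the counts, while 31034 genes had none.

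Translation genes led the list. Of the 117 genes at 1000 CPM or more, 57 encoded cytosolic ribosomal proteins and held 23.4% of the counts, 9 were mitochondrially encoded with 2.37%, 47 were other protein-coding genes with 8.48% and 4 were other transcripts. Ribosomal proteins filled 20 of the 25 highest places. RPL27A, a protein of the large subunit, had the highest level with 15511 CPM in the lowest, 18096 in the median and 22542 in the highest library, and its highest value was in library 2. RPS27A, a fusion of ubiquitin with a small subunit protein, was at 14119 ± 889 CPM, RPS4X at 12222 ± 567 CPM and RPS24 at 9650 ± 268 CPM (SD, n = 6). The other 5 of the first 25 were the mitochondrial ribosomal RNA MT-RNR2 at 6703 ± 890 CPM, EEF2 at 6140 ± 610 CPM, the mitochondrial regulator CHCHD2 at 4910 ± 330 CPM, the alpha-tubulin TUBA1B at 4094 ± 410 CPM and the ribosome-bound scaffold RACK1 at 3988 ± 242 CPM. Library 2 was the lowest of the 6 for 14 of these 25 genes, and its ribosomal protein share was 22.8% against 24.3% to 25.7% in the others.

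Some genes known for high expression sat low, and whether the way tags are assigned bears on them was not tested. EEF1A1, the main elongation factor that brings tRNAs to the ribosome, was counted at 76.3, 178 and 204 CPM in the lowest, median and highest library, and the table names 39 pseudogenes after it. RPL17 was at 2.87 CPM, with 23 named pseudogenes and 32.7% of its exon bases overlapping another gene of its strand. RPS4X, also with 23 named pseudogenes, was at 12222 CPM, and RPL36A, with 18, at 22.1 CPM. PGAM1, a glycolytic enzyme, was at 5.46 ± 1.54 CPM. The heat shock gene HSPA1A was at 0.491 ± 0.203 CPM beside 448 ± 57.3 CPM for its near-identical neighbour HSPA1B. Coding genes whose exons overlapped another gene of the same strand over more than 90% of their bases had no count in 371 of 391 cases (94.9%), against 19.7% of the 16471 genes with no such overlap. Overlap of more than 90% with a gene of the opposite strand went with no count in 12 of 31 cases (38.7%), against 25.9% of genes without. For such genes a low count cannot be told apart from reads that were set aside or given to a partner, and they are not read as silent here.

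Protein-coding genes held 95.9 ± 0.183% of the counts (SD, n = 6), and 11926 of the 19760 in the table (60.4%) reached 1 CPM. Their median level was 5.51 CPM. The 2 mitochondrial ribosomal RNAs held 0.928% of the counts and 22 mitochondrial tRNA genes 0.319%, led by MT-TL1 at 1138 ± 215 CPM. All mitochondrially encoded genes together held 2.81 ± 0.336%, lowest in library 4 at 2.18%. Among 7479 long intergenic noncoding RNA genes 351 reached 1 CPM (4.69%), with 0.744% of the counts. SNHG25, a host of a small nucleolar RNA, stood at 1385 ± 243 CPM, although 48.6% of its exon bases overlap another gene of its strand. MALAT1, a nuclear-retained RNA, varied more, with 256, 380 and 685 CPM in the lowest, median and highest library, and library 2 was the highest.

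Antisense transcripts were the most numerous noncoding class at 1 CPM or more, 507 of 5513 genes with 0.437% of the counts. Hosts of small nucleolar RNAs led them as well, with ZFAS1 at 362 ± 30.9 CPM and SNHG7 at 357 ± 6.56 CPM. The kidney-patterning locus showed its antisense partner too, HOXA11-AS at 86.7 ± 7.67 CPM. Processed transcripts held 0.690% of the counts in 89 genes at 1 CPM or more, of which LRRC75A-AS1, also called SNHG29, reached 3620 ± 270 CPM, SNHG6 696 ± 59.7 CPM, SNHG5 618 ± 32.2 CPM and GAS5 416 ± 42.8 CPM. Processed pseudogenes, which share sequence with their parent genes, held 0.666% of the counts in 331 of 10246 genes, and the first of them, ENSG00000234742 with no symbol in the table, was counted at 1127 ± 177 CPM.

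Genes of the developing kidney, most of them transcription factors, were more often present than markers of the mature nephron, 14 of 18 against 1 of 18 at 1 CPM. Of the 18 kidney development genes 14 reached 1 CPM and 10 reached 10 CPM, with a median of 21.2 CPM against 5.51 CPM over all coding genes. Over all coding genes 60.4% reached 1 CPM and 43.4% reached 10 CPM, the shares against which the list counts are to be read. HOXD11, a patterning gene of the metanephros, had 77.0, 102 and 114 CPM in the lowest, median and highest library, and its paralog HOXA11 had 88.3, 94.3 and 109.6 CPM. GATA3, a factor of the ureteric duct, stood at 44.5 ± 4.37 CPM, LHX1 at 40.8 ± 5.66 CPM and WT1 at 24.4 ± 3.79 CPM (SD, n = 6). CITED1, SALL1, EMX2 and the ligand GDNF lay between 19.4 and 27.4 CPM. Not all early kidney factors were high. PAX2 reached 1.58 ± 0.459 CPM, while PAX8, a factor of the same family, had 1 count among 94064504.

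Of 18 mature nephron genes 1 reached 1 CPM. That gene was LRP2, which encodes the endocytic receptor megalin of the proximal tubule, with 18.4, 21.3 and 22.5 CPM in the lowest, median and highest library. Its partner receptor CUBN was at 0.179 ± 0.121 CPM. The water channel AQP2, the loop protein UMOD, the sodium transporter SLC12A1, the organic anion transporters SLC22A6 and SLC22A8 and the factor HNF4A were among 7 genes that had no count in any library, and 0 counts over the group allow a level of up to 0.0319 CPM. None of these 7 genes overlapped another gene of its strand over more than 50% of its bases. Among 7 podocyte and stroma genes PODXL, a sialomucin of podocytes and of other cells, was at 69.4 ± 2.54 CPM and the stromal factor FOXD1 at 28.7 ± 8.97 CPM, and 4 genes stayed below 1 CPM.

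The neuronal list was uneven. Of 26 genes 15 reached 1 CPM, 10 reached 10 CPM and 4 had no count, and the median was 2.38 CPM against 5.51 CPM over all coding genes. NEFL, the light neurofilament chain, was among the 100 most abundant genes of the cells, with 1150, 1411 and 1670 CPM in the lowest, median and highest library. Its partner chain NEFM was at 0.991, 1.49 and 1.92 CPM, and NEFH at 0.0568 ± 0.0320 CPM. The log2 ratio of NEFM to NEFL was -9.44 ± 0.281 (SD, n = 6) and NEFL was higher in 6 of 6 libraries. UCHL1, a ubiquitin hydrolase of neurons, stood at 381 ± 49.3 CPM, the microtubule protein MAP1B at 140 ± 16.7 CPM and the adhesion molecule NCAM1 at 80.1 ± 3.01 CPM. Some synaptic and neuron-defining genes were low. SYP was at 1.74 ± 0.550 CPM, SNAP25 at 0.355 ± 0.215 CPM and RBFOX3 at 0.108 ± 0.107 CPM, and DCX had 1 count. They are examples and do not stand for all such genes. The neuronal enolase ENO2, set against ENO1 below, was higher than each of them. ELAVL4, NNAT and TUBB3 were among those with no count, but 35.8% of the exon bases of TUBB3 overlap another gene of its strand.

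Of 14 genes of neural crest or progenitor cells 12 reached 1 CPM (85.7% against 60.4% of coding genes) and 10 reached 10 CPM (71.4% against 43.4%), and the median was 28.8 CPM. SOX4 had 811, 888 and 1138 CPM in the lowest, median and highest library, the Notch target HES1 238, 265 and 325 CPM, and MSX1 83.5, 106 and 143 CPM. TFAP2A was at 87.5 ± 9.70 CPM, SOX11 at 34.0 ± 3.67 CPM, PAX6 at 29.1 ± 3.76 CPM and SOX2 at 28.5 ± 4.61 CPM. SOX10, the factor of migrating crest and glia, and FABP7 had no count.

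Genes of adrenal cells were mostly missing. In the chromaffin and sympathoadrenal list 4 of 16 genes reached 1 CPM, ISL1 at 18.4 ± 2.60 CPM, GATA2 at 13.6 ± 2.59 CPM, INSM1 at 6.82 ± 1.04 CPM and HAND2 at 4.93 ± 0.717 CPM. The catecholamine enzymes TH and DBH, the factor PHOX2A and the vesicle transporter SLC18A1 had no count. Of 9 adrenal cortex genes only the nuclear receptor NR0B1 passed 1 CPM, at 2.95 ± 0.534 CPM, and the steroid enzymes CYP11A1, CYP11B1, CYP21A2 and HSD3B2 and the receptor MC2R had no count.

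**Figure D2:**
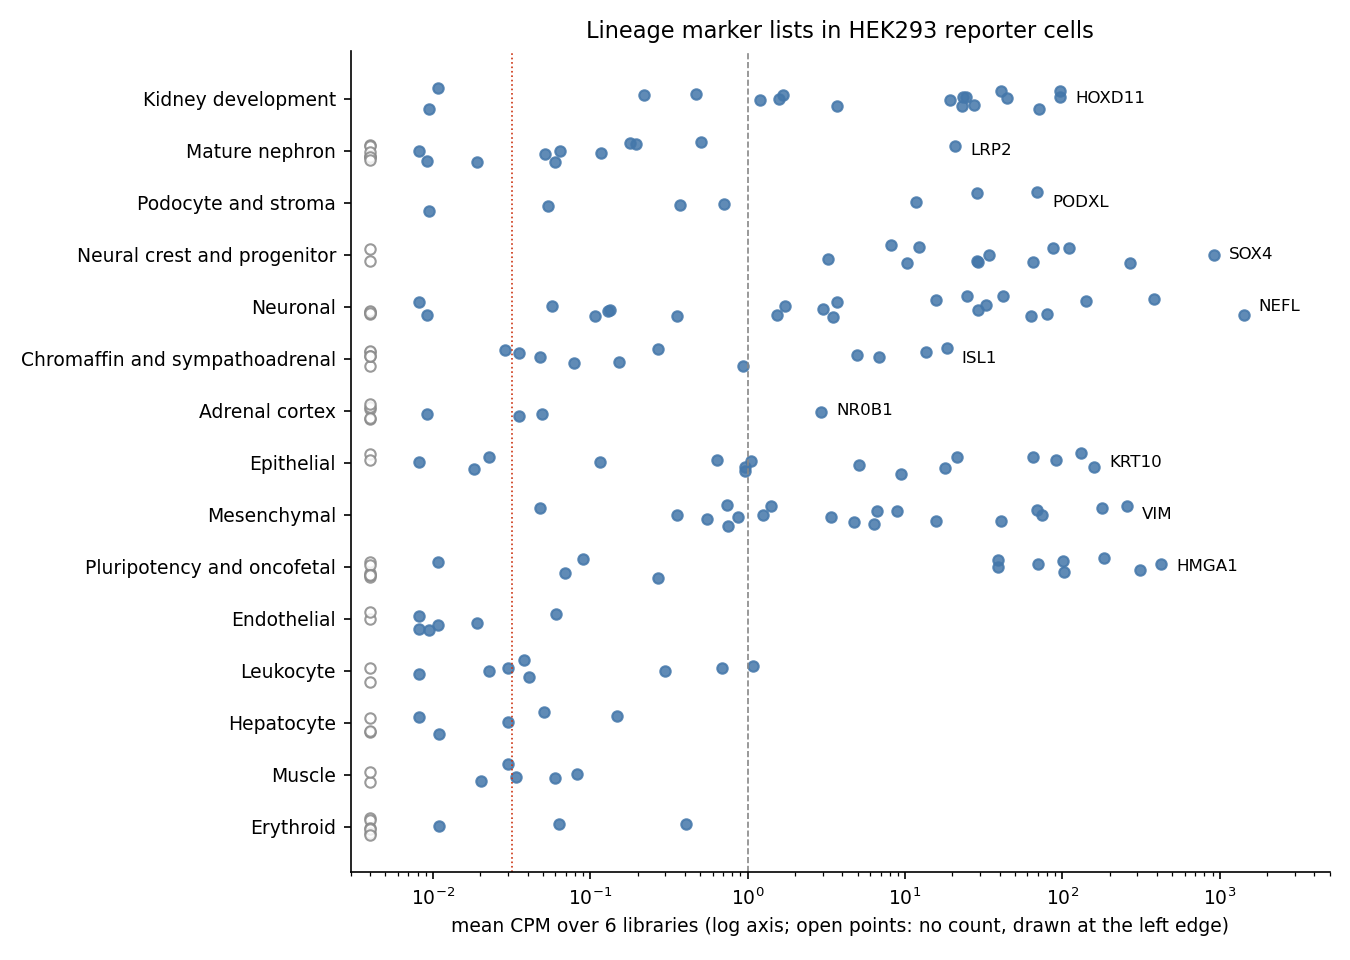
Mean CPM over the 6 libraries (horizontal log axis) of each member of 15 lineage lists (rows), with open points for genes without a count, a dashed line at 1 CPM and a dotted line at 0.0319 CPM, the level of 3 counts over the group. All lists of the upper 10 rows except that of the adrenal cortex have members past 10 CPM, and in the lists of the 5 bottom rows a single gene, CD68 of the leukocyte list, lies above 1 CPM.

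Of the mesenchymal list 68.4% and of the epithelial list 50.0% of members reached 1 CPM, against 60.4% of coding genes, with medians of 4.71 and 1.01 CPM against 5.51 CPM. The leading mesenchymal gene VIM stood at 225, 262 and 280 CPM in the lowest, median and highest library and CDH2, N-cadherin, at 158, 174 and 214 CPM. E-cadherin CDH1 was at 9.46 ± 0.733 CPM, so that the log2 ratio of CDH2 to CDH1 was 4.15 ± 0.163 with CDH2 higher in 6 of 6 libraries. The simple epithelial keratins were present as well, KRT18 at 131 ± 11.6 CPM and KRT8 at 65.2 ± 8.07 CPM, beside KRT10 at 160 ± 21.3 CPM, the desmosome protein DSP at 90.6 ± 10.3 CPM and EPCAM at 21.4 ± 3.95 CPM. The table names 67 pseudogenes after KRT18 and 50 after KRT8, so their levels may share reads. KRT5 and KRT14, keratins of stratified epithelium, had no count. The epithelial list had 9 of 18 genes at 1 CPM and the mesenchymal list 13 of 19, among them the matrix genes SPARC at 73.9 ± 9.14 CPM and FN1 at 68.7 ± 9.70 CPM, while the fibrillar collagen COL1A2 was at 0.554 ± 0.293 CPM.

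Markers of other tissues gave few counts. The 8 endothelial genes summed to 0.117 ± 0.126 CPM, the 8 hepatocyte genes to 0.247 ± 0.114 CPM, the 7 muscle genes to 0.226 ± 0.135 CPM and the 9 erythroid genes to 0.483 ± 0.212 CPM, with no member at 1 CPM. Of the 6 erythroid genes with no count 2 overlap another gene of their strand over more than 50% of their exon bases, and these are not read as silent. The 10 leukocyte genes summed to 2.21 ± 0.230 CPM, of which CD68, which overlaps another gene of its strand over more than 50% of its exon bases, made 1.09 CPM, and PTPRC had no count.

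Of 18 pluripotency and oncofetal genes 8 reached 1 CPM (44.4% against 60.4% of coding genes) and 6 had no count. HMGA1, an architectural chromatin protein, had 387, 423 and 467 CPM in the lowest, median and highest library and IGF2BP1, which binds and stabilises mRNAs, 163, 185 and 197 CPM. The log2 ratio of HMGA1 to its paralog HMGA2 was 2.07 ± 0.223, with HMGA1 higher in 6 of 6 libraries. LIN28B, an inhibitor of let-7 maturation, stood at 38.9 ± 6.13 CPM, IGF2BP2 at 102 ± 9.15 CPM and IGF2BP3 at 38.7 ± 4.82 CPM. POU5F1, NANOG, PRDM14, DPPA4, DLK1 and H19 had no count. TERT, the catalytic subunit of telomerase, was at 0.269 ± 0.0943 CPM, beside 311 ± 20.9 CPM for DKC1, which stabilises the telomerase RNA. Of 18 cancer-testis genes 1 reached 1 CPM, PRAME at 23.7 ± 3.43 CPM, and 15 had no count. The pregnancy-specific glycoprotein cluster gave almost no counts, with 8 of 10 genes without a count and PSG2 at 0.307 ± 0.277 CPM.

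The RB and E2F list, which holds RB and E2F family members, cyclins and kinases as well as replication genes, was expressed nearly throughout. All 32 members reached 1 CPM, 31 reached 10 CPM and 16 reached 100 CPM. The median was 99.8 CPM against 5.51 CPM over all coding genes and 22.9 CPM over coding genes at 1 CPM or more. The list of G2 and M phase genes was alike, with all 24 members at 10 CPM or more and a median of 104 CPM. TOP2A, the replication and mitosis topoisomerase, had 942, 1074 and 1241 CPM in the lowest, median and highest library, and the helicase subunit MCM3 411, 458 and 494 CPM. Thymidylate synthase TYMS followed at 362 ± 16.7 CPM, RRM2 at 312 ± 41.5 CPM, MCM7 at 306 ± 19.3 CPM and the sliding clamp PCNA at 230 ± 18.6 CPM. CDKN2A, which encodes the CDK inhibitor p16 and is repressed by active RB, had 154, 172 and 191 CPM. Lower members were RB1 at 25.9, 35.6 and 42.6 CPM, E2F1 at 35.7 ± 2.46 CPM, RBL2 at 19.5 ± 1.48 CPM and RBL1 at 14.6 ± 1.34 CPM. The list's summed level ran from 4842 to 5137 CPM over the libraries, and its members' median spread beyond counting was 7.25% against 9.46% over all genes at 10 CPM or more.

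All 12 host proteins chosen as E1A partners were expressed at 10 CPM or more, against 43.4% of coding genes, with a median of 61.9 CPM against 5.51 CPM. DCAF7, a scaffold for kinases, led with 264, 280 and 331 CPM, followed by the corepressor CTBP1 with 157, 168 and 182 CPM and the factor FOXK2 at 103 ± 21.4 CPM. EP300 at 33.4 ± 4.92 CPM and CREBBP at 31.5 ± 5.91 CPM lay within their spread of each other, with EP300 higher in 4 of 6 libraries and a log2 ratio of 0.09 ± 0.178 (exact two-sided sign-flip permutation test, p = 0.312, adjusted p = 0.323, n = 6). The viral transcripts themselves have no row in the table and were not analysed here.

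The p53 list holds targets, regulators and relatives. Of its 18 genes 17 reached 1 CPM (94.4% against 60.4% of coding genes) and 15 reached 10 CPM (83.3% against 43.4%), with a median of 61.5 CPM against 5.51 CPM. The death gene PMAIP1 stood at 307 ± 39.7 CPM, the CDK inhibitor CDKN1A at 121, 195 and 253 CPM, the cytokine GDF15 at 114, 199 and 274 CPM and BBC3 at 126 ± 11.9 CPM. The feedback ligase MDM2 had 178 ± 21.6 CPM and its paralog MDM4 57.7 ± 4.69 CPM, with MDM2 higher in 6 of 6 libraries. CDKN1A and GDF15 spread by 25.4% and 29.3% beyond counting, above the 17.4% that 90% of genes at 10 CPM or more stayed under, and GDF15 was lowest in library 6 while CDKN1A was lowest in library 2. Of the apoptosis regulators the inhibitor BIRC5 was at 377 ± 22.5 CPM and MCL1 at 289 ± 13.6 CPM, against 11.6 ± 1.81 CPM for BCL2 and 7.91 ± 0.496 CPM for BCL2L1. RIPK3, the kinase of necroptosis, had no count.

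**Figure D3:**
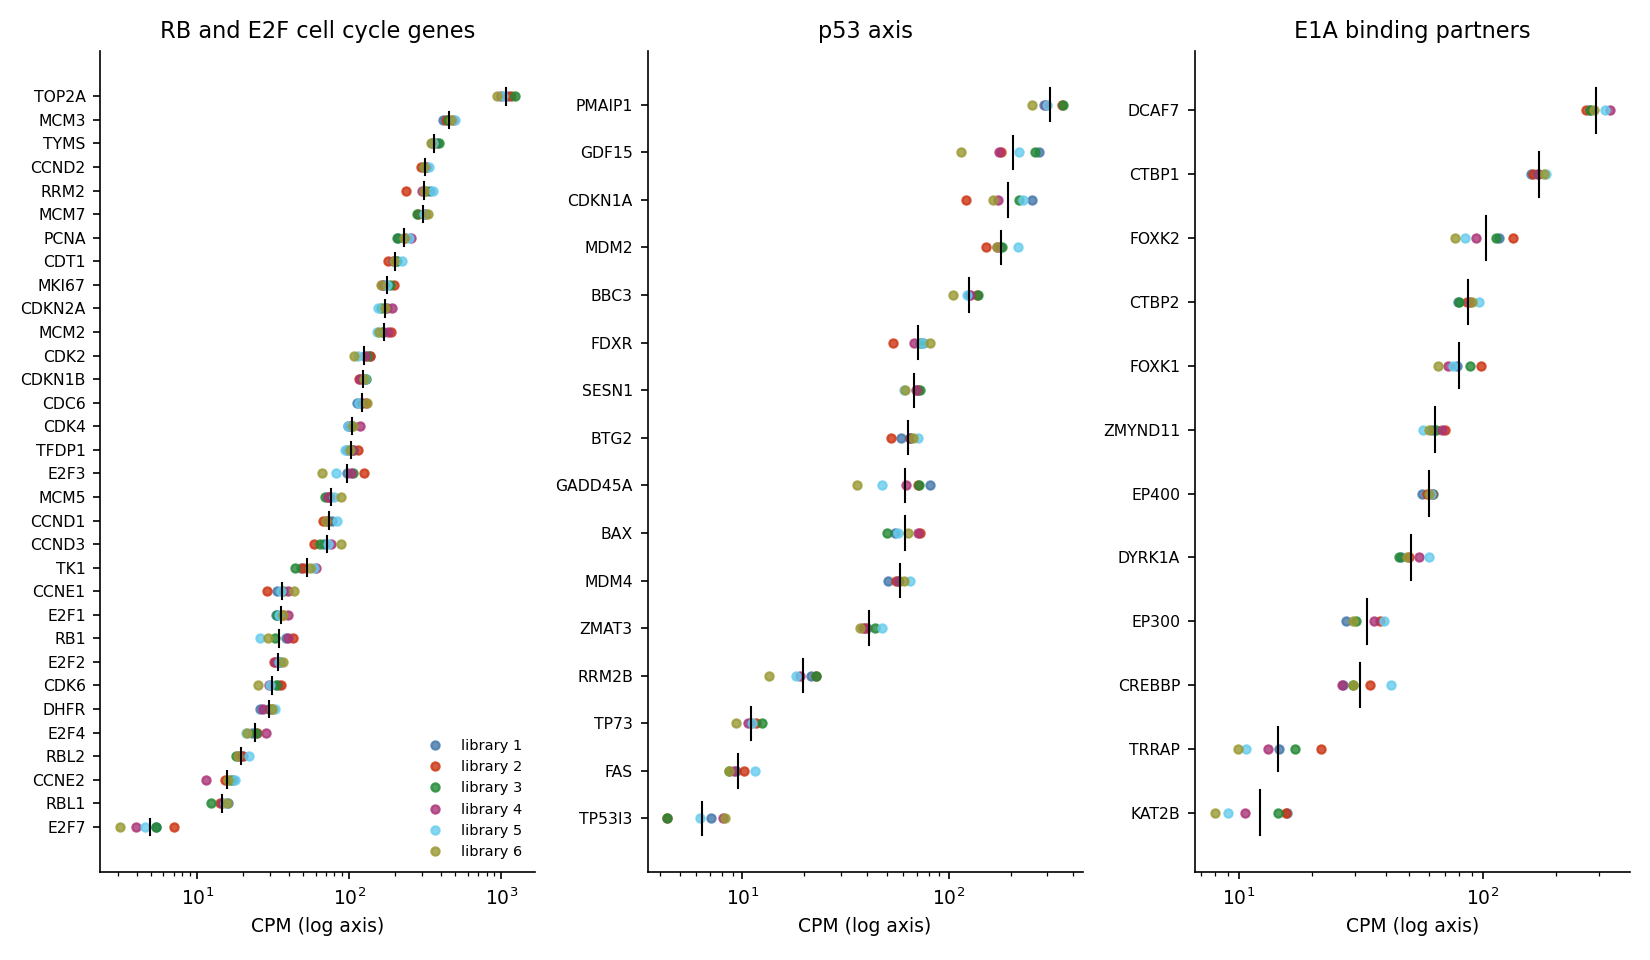
CPM (horizontal log axis) of each gene in each of the 6 libraries (coloured points; black bars are means) for the RB and E2F, p53 and E1A partner lists, without TP63, which had no count, and 1 member not shown. TOP2A leads at 1082 CPM, RB1 lies at 34.7 CPM, and the points of GDF15, CDKN1A and GADD45A spread more widely than those of MCM3 or CDKN2A.

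Of 36 genes of nucleic acid sensing and interferon response 20 reached 1 CPM, a share of 55.6% near the 60.4% of all coding genes, and 11 reached 10 CPM (30.6% against 43.4%). Of the 6 with no count 2 overlap another gene of their strand over more than 50% of their exon bases. The cytosolic DNA sensor cGAS, listed as MB21D1, had 4 counts in all, while its adaptor TMEM173, known as STING, was at 7.35, 11.1 and 12.2 CPM. The RNA-editing enzyme ADAR stood at 136 ± 18.7 CPM, the adaptor MAVS at 97.1 ± 9.31 CPM and the RNA sensors IFIH1 at 5.85 ± 0.902 CPM and DDX58 at 4.68 ± 0.630 CPM. IFNB1 had no count, and the interferon-induced genes ISG15 and IFIT1 were at 8.75 ± 0.654 and 5.44 ± 0.522 CPM after 72 hours with siRNA. Of the genes that carry out RNA interference all 13 were above 10 CPM, from DGCR8 at 14.7 ± 2.27 CPM to the exporter XPO5 at 126 ± 5.16 CPM, and AGO2 at 70.1 ± 6.38 CPM lay above AGO1 at 47.5 ± 3.41 CPM in 6 of 6 libraries.

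Of 57 receptors 26 reached 1 CPM (45.6% against 60.4% of coding genes), 12 reached 10 CPM (21.1% against 43.4%) and 13 had no count, with a median of 0.657 CPM against 5.51 CPM. LGR4, which augments Wnt signalling, led with 33.9, 38.4 and 45.1 CPM in the lowest, median and highest library, the thrombin receptor F2R had 26.0, 29.9 and 33.0 CPM and the muscarinic receptor CHRM3 22.4, 24.2 and 26.6 CPM. Of the other muscarinic receptors CHRM1, CHRM2 and CHRM4 had no count. The delta opioid receptor OPRD1 stood at 4.18 ± 0.871 CPM, while OPRM1, OPRK1 and the serotonin receptors HTR1A, HTR2A and HTR2C had no count. Of the G protein, arrestin, kinase and cyclase genes through which they signal 22 of 25 reached 1 CPM (88.0%). GNAS was at 512 ± 54.6 CPM and GNAL, the olfactory stimulatory subunit, at 138 ± 8.60 CPM, and ARRB2 exceeded ARRB1 in 6 of 6 libraries, with ARRB2 at 132 ± 4.23 CPM and a log2 ratio of ARRB1 to ARRB2 of -4.60 ± 0.330.

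Of 42 ion channel genes 27 reached 1 CPM (64.3%, near the 60.4% of coding genes) and 14 reached 10 CPM (33.3% against 43.4%), with a median of 1.65 CPM against 5.51 CPM. The list was led by VDAC1 at 239 ± 13.3 CPM, TRPM7 at 105 ± 19.3 CPM and the calcium sensor STIM1 at 95.0 ± 10.4 CPM. Lower members were KCNK1 at 38.3 ± 6.82 CPM, ASIC1 at 24.0 ± 2.31 CPM and the mechanosensitive PIEZO1 at 12.7 ± 1.58 CPM. KCNA2, KCNA5, CACNA1B and SCN1A were among 5 channel genes with no count. Among 29 growth factor receptors 25 reached 1 CPM, with MET at 81.2 ± 9.94 CPM, INSR at 70.9 ± 7.96 CPM, FGFR1 at 59.6 ± 3.60 CPM and EGFR at 11.2 ± 1.37 CPM.

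Members of related gene pairs were set against each other within each library, 32 pairs in all. An exact two-sided sign-flip permutation test over the 6 log2 ratios, with a pseudocount of 0.5 CPM, can give no p below 0.0312, and 29 pairs reached it. That is 90.6% of the pairs, and with Benjamini-Hochberg adjustment over the 32 pairs the exact test gave them p = 0.0345. Every pair with the same order in 6 of 6 libraries gives this value, whatever the size of the ratio. For PKM with PKLR and TUBB with TUBB3 the second gene had no count, so their test could come out no other way. PAX8, paired with PAX2, was at only 0.0095 CPM. Among glycolytic isoforms ENO1 at 1237 ± 129 CPM was above the neuronal form ENO2 by 4.87 ± 0.107 on the log2 scale, and HK1 at 174 ± 14.6 CPM was above HK2 at 27.7 ± 4.58 CPM. LDHB at 1010 ± 76.1 CPM exceeded LDHA at 269 ± 40.2 CPM by 1.92 ± 0.117 on the log2 scale, in 6 of 6 libraries, although 33.4% of the exon bases of LDHB overlap another gene of its strand. PKLR, the liver pyruvate kinase, had no count, and PKM at 257 ± 28.9 CPM was at least 8056-fold higher than the level of 3 counts over the group. Stress-inducible HSP90AA1 at 2640 ± 331 CPM was above the constitutive HSP90AB1 at 1240 ± 157 CPM in 6 of 6 libraries. ACTG1 at 3032 ± 269 CPM exceeded ACTB at 416 ± 49.8 CPM, although 20 and 10 pseudogenes are named after them. The 3 pairs that missed the threshold were EP300 with CREBBP, CCND1 with CCND3 at 73.9 ± 5.83 and 71.3 ± 10.1 CPM, and TMSB10 with TMSB4X at 332 ± 31.2 and 264 ± 47.0 CPM, the last with TMSB10 higher in 5 of 6 libraries (exact p = 0.0625, adjusted p = 0.0667).

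Most genes differed little between the 6 transfections. Over the 8889 genes at 10 CPM or more the median coefficient of variation was 10.6%, of which counting alone gives 4.42%, and the part beyond counting, called the excess here, had a median of 9.46%. It stayed under 10% in 54.2% of these genes and under 20% in 94.3%. The 20 ERCC standards with a mean of at least 150 counts, which were added after the cells were lysed, had a median excess of 9.04% in a comparison added after the data were seen, beside 9.51% for the 9025 endogenous genes of at least that count. Each standard was scaled to the sum of all standards in its library, and each gene to the endogenous total. Differences between libraries in the endogenous to ERCC ratio therefore do not enter the 9.04%. Without library 2 the median excess was 8.49% over genes and 7.56% over the 20 standards, and the shares of genes under 10% and 20% were 61.8% and 96.3%. The biological coefficient of variation from edgeR's intercept-only fit was 10.8% in the median gene and 9.91% without library 2, and DESeq2 gave 10.9%.

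**Figure D4:**
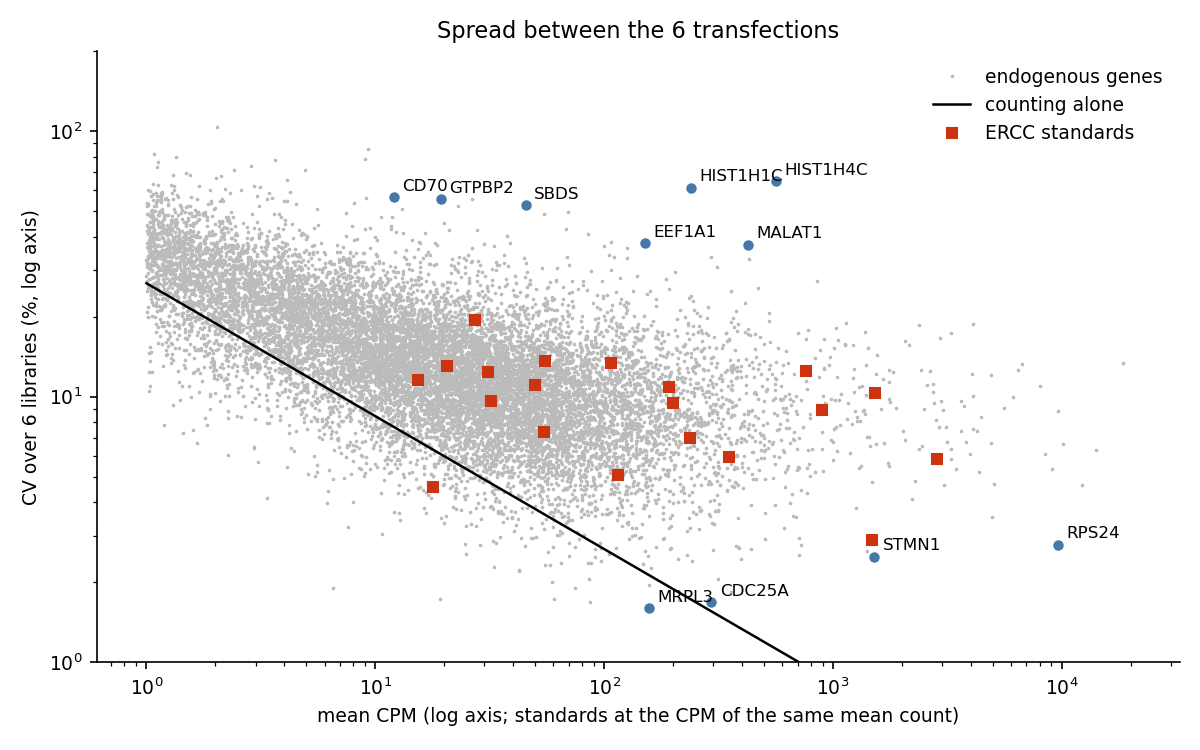
Coefficient of variation over the 6 libraries in percent against mean CPM (both log axes) for endogenous genes at 1 CPM or more (grey), 20 ERCC standards (red squares, placed at the CPM of the same mean count) and named genes (blue), with the spread that counting alone gives as a black line. The spread of the standards is relative to their own sum in each library. Most genes and standards lie near 10%, HIST1H4C and HIST1H1C lie above 60%, and MRPL3 lies below the counting line at 1.60%, where counting alone gives 2.13%.

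Among the steadiest genes at 100 CPM or more MRPL3 had 155, 157 and 162 CPM in the lowest, median and highest library, the vesicle SNARE VTI1B 206, 214 and 216 CPM, the cell cycle phosphatase CDC25A 287, 293 and 299 CPM and the noncoding SNHG7 349, 358 and 363 CPM. STMN1 kept to 1466, 1523 and 1564 CPM. AP1B1, CDC123, PRPF8, PPP2R5D, ALDH7A1, MRPS33 and ERP29 completed the 12. No library was the highest for more than 4 of these genes. The 12 were picked for the smallest spread in these same libraries, so they are no yardstick for other lists. Among the usual reference genes HPRT1 varied by 5.32%, RPLP0 by 5.36%, RPL13A by 6.85% and IPO8 by 6.99%. GAPDH varied by 10.4%, B2M by 13.6%, TBP by 17.0% and EEF1A1 by 37.7%. The 20 reference genes had a median excess of 10.2%, close to the 9.46% over all genes at 10 CPM or more. Without library 2 the values were 9.83% and 8.49%.

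The most variable genes at 10 CPM or more were highest in 1 library. HIST1H4C had 322, 417 and 1277 CPM in the lowest, median and highest library, and HIST1H1C, a linker histone, 94.6, 203 and 506 CPM. CD70, a TNF family ligand, ran from 5.81 to 22.2 CPM, the GTPase GTPBP2 from 6.53 to 31.0 CPM, ATXN2L from 11.5 to 49.1 CPM, the ribosome maturation factor SBDS from 17.7 to 75.1 CPM and ASNSD1 from 8.69 to 40.3 CPM. Library 2 was the highest for all 20 of the most variable genes, and the lowest was library 6 for 12, library 5 for 7 and library 4 for 1. Over all genes at 10 CPM or more library 2 was the highest for 29.5% and library 6 the lowest for 23.5%.

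**Figure D5:**
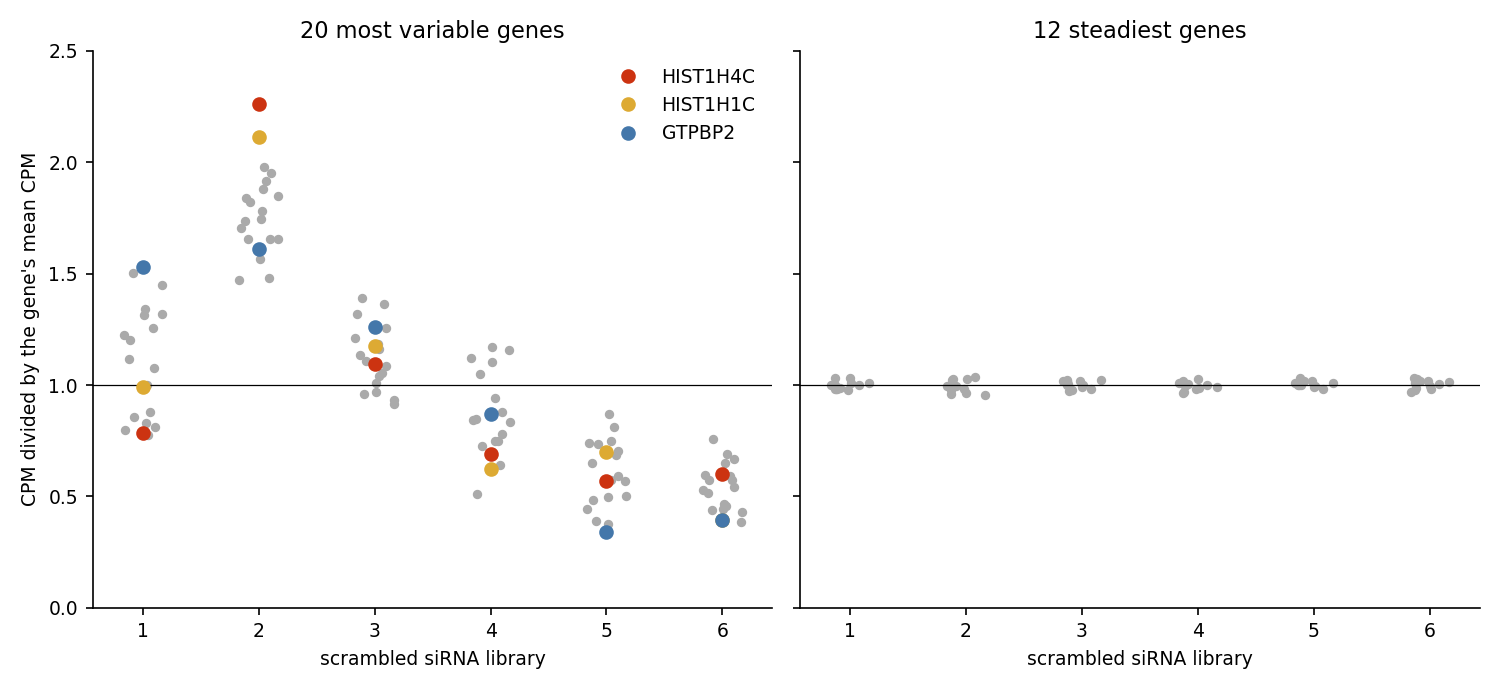
CPM divided by the gene's own mean (vertical axis) in each of the 6 scrambled siRNA libraries (horizontal axis) for the 20 genes with the largest spread beyond counting (left; HIST1H4C, HIST1H1C and GTPBP2 coloured) and the 12 steadiest genes (right), 1 point per gene and library. All 20 variable genes are highest in library 2, and libraries 4 to 6 lie lower than libraries 1 to 3 for most of them.

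Without library 2 the order changed. Only 10 of the 20 genes remained among the 20 most variable of the other 5 libraries, where GTPBP2 led with an excess of 59.2%, followed by SBDS, then CD70 at 50.9%, ATXN2L at 48.6% and ASNSD1 at 48.5%. HIST1H4C fell from 64.6% to 28.1% and out of the first 20, while HIST1H1C stayed at 39.6%. Deviations by the GC content of transcript ends were largest in libraries 2 and 6. Genes were put into 5 groups by the GC content of up to 200 bases at the transcript end, a split chosen after the data were seen. Between the lowest and highest group the median deviation from a gene's mean differed by -0.20 on the log2 scale in library 2, by 0.19 in library 6 and by -0.06 to 0.06 in the other 4. The part of end composition, depth or the cells themselves in these values was not tested.

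Among the 26 lists with a summed level of at least 100 CPM the highest library exceeded the lowest by 1.06 to 1.36 times. The 10 lists below 100 CPM could range more widely, chromaffin genes from 36.0 to 53.5 CPM, cancer-testis genes from 20.3 to 30.2 CPM and the pregnancy-specific glycoprotein genes from 0.0551 to 0.818 CPM. Hypoxia and glycolysis genes summed to 6987 to 8794 CPM, lowest in library 3 and highest in library 6, immediate early genes to 1650 to 2197 CPM, lowest in library 6 and highest in library 2, and integrated stress genes to 2565 to 2987 CPM, with ATF4 itself at 1075 ± 84.1 CPM. The median member of the immediate early list deviated by 0.23 on the log2 scale in library 2 and by -0.26 in library 6, beside 0.03 and -0.02 over all genes at 10 CPM or more. G2 and M phase genes, all 24 above 10 CPM with AURKB at 361 ± 38.2 CPM and CDK1 at 298 ± 16.2 CPM, summed to 2733 to 3188 CPM.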

How the data were processed

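The series measured poly(A) RNA with 3′ tags. The deposited table holds raw counts per gene, made by the authors with STAR on GRCh38.p10 after FastQC 0.11.5, per the submitters' processing notes, which also name R 3.4.3. How reads were assigned to genes (the tool, the strand setting, the treatment of shared reads) is not given in the sources used here. Only the 6 scrambled siRNA columns were used. CPM, spread, list summaries and exact tests were computed with Python 3.11.15, numpy 2.4.6, pandas 2.3.3 and scipy 1.17.1, and scaling factors and dispersions with edgeR 4.0.16 and DESeq2 1.42.0 in R 4.3.3. CPM used the endogenous total, without ERCC or reporter rows. Excess variation is the square root of the squared coefficient of variation less that of Poisson counting. Of 57704 genes 57447 were matched to GENCODE 29, which gave positions, overlaps and end sequences. Spread and sign-flip tests were tested on simulated data. The transfections were of 1 culture, so p-values concern these libraries only. They test whether 1 gene of a pair was higher on average over the libraries, and they do not measure spread. Depth limits precision: 3 counts are 0.409 CPM in the shallowest library and 0.148 CPM in the deepest. Named genes were the 25 most abundant, the 20 most and 12 least variable, the leading 8 and the uncounted members of each of 36 lists, paired genes and the 5 leading genes of each main biotype; others were chosen after their values were seen, and some members are not reported here. The libraries and lists were chosen with earlier results of these data known.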

Additional observations from a re-analysis of the deposited data

Results flagged for a closer look

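In 16 results a single library stood far from the other 5, with a gap to its nearest neighbour larger than Dixon's 95% limit for 6 values. Chance flags about 1 in 20 groups, and 241 were examined. Of 14 library measures 4 were marked. GFP stood at 124 CPM in library 2 against 89.4 to 100.6 CPM in the others. The shallowest library, 4, had 18931 genes with a count, a mitochondrial share of 2.18% against 2.83% to 3.19%, and a coding share of 96.2% against 95.7% to 95.9%. Of 36 summed lists the mesenchymal one was marked, at 595 CPM in library 6 against 673 to 689 CPM.

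Library 2 was far above the others for HIST1H4C at 1277 CPM and RPL17 at 7.06 CPM, and far below them for GAS5, a host of small nucleolar RNAs, at 334 CPM. SOX4 was at 1138 CPM in library 5, SOX11 at 27.1 CPM in library 1, FGFR1 at 52.7 CPM in library 6 and PSG2 at 0.818 CPM in library 4. HLA-DPB1 was at 19.1 CPM in library 5, and HLA-DRA at 0.247 CPM in library 2. PAX8 and DCX were marked for a single count, which made 0.0570 CPM in library 3 and 0.0493 CPM in library 2.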

How the results depend on the processing

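The counts of genes at each threshold, the edgeR and DESeq2 variation, the list sums and the gene list counts stayed within 1.5 times or 1 SD of their values under every scaling, threshold and left-out library tried for them. Without mitochondrially encoded genes the coding share was 97.1% in place of 95.9%. With genes of at least 1 CPM the median excess was 10.7% in place of 9.46%, and leaving out each library in turn gave 8.49% to 9.70%, the lowest without library 2. Of the 20 most variable genes 10 to 19 remained when a library was left out, 10 of them without library 2. The lowest correlation between libraries was 0.974 with genes of at least 10 CPM, a setting added after the data were seen, and 0.983 to 0.988 with a library left out. Signals were found at the ends of 66.5% and 57.9% of coding genes at and below 1 CPM in the last 30 bases, and of 82.0% and 69.4% in the last 100 bases. With 5 libraries 0 pairs pass, because the smallest exact p is then 0.0625; with a pseudocount of 0 the number was 26, since 3 pairs then have no ratio. No paired analysis was possible because only 1 group of the series was used. Three-prime counts cannot tell fewer transcripts from shared or unassigned reads.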

Other observations

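Class II antigen presentation genes, singled out after their values were seen, were uneven. The beta chains HLA-DRB1, HLA-DQB1 and HLA-DPB1 stood at 28.9 ± 2.26, 23.5 ± 1.72 and 14.8 ± 2.18 CPM (SD, n = 6), and HLA-DRB5 at 13.9 ± 2.14 CPM. The alpha chain HLA-DRA, which pairs with the DR beta chains, had 6 counts in all, HLA-DQA1 had 7 counts and the invariant chain CD74 had 10 counts. HLA-DPA1 was at 4.73 ± 1.22 CPM. CIITA, the master regulator of class II genes, had no count. The class I gene HLA-C was higher, at 248 ± 16.2 CPM. These loci are polymorphic and near-identical, so reads may be shared between them.

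Histone cluster genes, also singled out after their values were seen, differed in which libraries were high. Of 71 such genes 19 reached 1 CPM and 21 had no count. The linker histone HIST1H1E, below the threshold for the most variable genes, ran from 4.27 CPM in library 6 to 23.0 CPM in library 2, and HIST2H2AC from 4.50 CPM in library 4 to 16.6 CPM in library 2. HIST3H2A, by contrast, stayed between 109 and 137 CPM and HIST1H2AC between 13.4 and 20.7 CPM, both highest in library 1.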
